A study of Mus musculus with 4 samples.

Results

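The regions described here are BRG1/BRM islands of depolarized mouse cortical neurons that lay at an end of a single protein-coding gene. An island is a stretch of the genome in which immunoprecipitated (IP) reads exceeded control reads. An island was included when it was over 600 and under 5000 bp wide and overlapped the window of 2 kb to either side of the start or end coordinate of exactly 1 protein-coding gene of the RefSeq annotation of mouse build GRCm38.p6 (mm10). This held for 3614 of 20966 KCl islands (17.2%), at 3508 genes, which are called single-gene islands below. The study mapped the ATPases in wild-type primary cortical neurons taken from E16.5 embryos and grown for 6 days in vitro, with the J1 antibody against BRG1 and BRM. KCl cultures were held in 50 mM KCl for 1 h after pretreatment with 1 µM TTX and 100 µM APV. Basal cultures had the basal KCl level, and it is not stated if the blockers were added to them. Each condition had 1 IP library and 1 input library, so no value could be checked against a replicate and p-values are not used. The IP and control read counts of each island are the data. Brackets give 95% exact intervals after Clopper and Pearson, which take in counting error and nothing else.

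BRG1, encoded by Smarca4, and BRM, encoded by Smarca2, are alternative ATPases of the BAF (SWI/SNF) complex, which slides and evicts nucleosomes and so changes access to promoters and enhancers. Promoters of many vertebrate genes lie in CpG islands, stretches rich in CpG dinucleotides, with an open region at the start of transcription followed by positioned nucleosomes in the transcribed part. In neurons, membrane depolarization opens calcium channels, and calcium signalling acts through factors such as CREB, SRF, MEF2 and AP-1 on activity-regulated genes. CREB binds the cAMP response element, AP-1 is a dimer of Fos and Jun family proteins, and SRF binds the CArG box.

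The promoters that show this combination of an island and a site for such a factor are printed first, because they carry the sequence to which the later motif counts refer. Each run holds the 250 bases before an annotated start, read 5′ to 3′ on the strand of the gene, from the RefSeq promoter table of GRCm38.p6. Every one of these starts lay inside a single-gene island. Capitals mark an AP-1 site (TGANTCA) in Cgref1, a MEF2 site in Ndrg2 and a cAMP response element (TGACGTCA) in the others. The Scg2, Cgref1 and Ndrg2 genes followed from a rule on named genes. The other 5 were picked with their values in view, as the covered starts holding a cAMP response element whose fold had the highest lower limits.
Scg2, chr1:79440027-79440276, minus strand: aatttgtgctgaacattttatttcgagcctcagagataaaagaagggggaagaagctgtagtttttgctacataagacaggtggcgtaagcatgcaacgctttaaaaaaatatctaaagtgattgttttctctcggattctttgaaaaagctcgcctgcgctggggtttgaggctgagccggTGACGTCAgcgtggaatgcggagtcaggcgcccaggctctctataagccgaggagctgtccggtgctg
Cgref1, chr5:30945428-30945677, minus strand: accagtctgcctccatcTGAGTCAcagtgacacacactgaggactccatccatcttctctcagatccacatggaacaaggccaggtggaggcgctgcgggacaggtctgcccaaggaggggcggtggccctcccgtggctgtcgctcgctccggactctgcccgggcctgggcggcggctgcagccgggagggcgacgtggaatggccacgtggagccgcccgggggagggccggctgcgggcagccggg
Ndrg2, chr14:51914005-51914254, minus strand: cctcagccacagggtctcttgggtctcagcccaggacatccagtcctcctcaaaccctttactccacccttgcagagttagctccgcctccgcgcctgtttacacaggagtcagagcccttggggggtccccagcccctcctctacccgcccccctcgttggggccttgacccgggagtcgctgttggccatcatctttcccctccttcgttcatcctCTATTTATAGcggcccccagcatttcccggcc
Ppp2ca, chr11:52098574-52098823, plus strand: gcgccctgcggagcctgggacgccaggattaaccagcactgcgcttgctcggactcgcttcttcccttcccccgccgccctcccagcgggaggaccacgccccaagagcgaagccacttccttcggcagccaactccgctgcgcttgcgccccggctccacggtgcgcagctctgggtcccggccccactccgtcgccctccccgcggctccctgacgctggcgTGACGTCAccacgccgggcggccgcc
Slc25a36, chr9:97111042-97111291, minus strand: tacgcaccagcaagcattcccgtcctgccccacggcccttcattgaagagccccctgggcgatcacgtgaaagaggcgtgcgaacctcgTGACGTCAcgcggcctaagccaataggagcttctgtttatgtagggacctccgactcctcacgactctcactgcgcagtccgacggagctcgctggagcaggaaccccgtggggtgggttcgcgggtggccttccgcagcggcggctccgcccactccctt
Gpbp1, chr13:111490128-111490377, minus strand: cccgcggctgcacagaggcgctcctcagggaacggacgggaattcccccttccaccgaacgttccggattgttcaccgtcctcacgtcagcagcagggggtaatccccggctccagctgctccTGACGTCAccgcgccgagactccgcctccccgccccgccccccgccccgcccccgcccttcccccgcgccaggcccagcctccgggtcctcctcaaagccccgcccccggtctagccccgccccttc
Ube2h, chr6:30304540-30304789, minus strand: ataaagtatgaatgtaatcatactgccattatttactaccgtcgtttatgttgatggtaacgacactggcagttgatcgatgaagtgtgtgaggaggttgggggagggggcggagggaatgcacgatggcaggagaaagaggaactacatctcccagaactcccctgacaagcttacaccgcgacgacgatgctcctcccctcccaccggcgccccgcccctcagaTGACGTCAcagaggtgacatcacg
Neurl1a, chr19:47178570-47178819, plus strand: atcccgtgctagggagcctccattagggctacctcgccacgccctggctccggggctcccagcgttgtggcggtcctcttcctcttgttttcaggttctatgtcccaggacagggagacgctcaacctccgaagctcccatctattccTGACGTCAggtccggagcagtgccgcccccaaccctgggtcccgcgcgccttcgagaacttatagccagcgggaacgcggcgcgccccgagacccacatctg

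Scg2 encodes secretogranin II, a secretory granule protein of neurons, and its cAMP response element began at -68 relative to the start. The island over it (chromosome 1, 79437201 to 79440600) held 217 IP reads and 35 control reads, a 3.89-fold enrichment [2.72 to 5.74]. No single-gene island held more IP reads. In Ppp2ca, which encodes the catalytic subunit of protein phosphatase 2A, the element began at -26, and the island held 109 IP and 20 control reads (3.42-fold [2.11 to 5.82]). In Slc25a36, the gene of a mitochondrial pyrimidine nucleotide carrier, it began at -161 (87 IP and 18 control reads, 3.04-fold [1.81 to 5.36]). The elements of Neurl1a and Gpbp1 began at -102 and -127, and that of Ube2h, a ubiquitin-conjugating enzyme gene, at -24. Their islands had folds of 2.92 [1.62 to 5.63], 2.71 [1.69 to 4.53] and 2.36 [1.62 to 3.50]. Beyond Scg2, and leaving out predicted genes, 73 genes had a covered start with the element in these 250 bases. The interval lay above 1 at 58 of them, and at 75.5% of all single-gene islands. The AP-1 site of Cgref1, which encodes a secreted EF-hand protein, began at -233, under an island of 62 IP and 10 control reads (3.89-fold [1.98 to 8.52]).

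Single-gene islands lay mostly at the start of their gene. The inclusion rule puts the same window around both ends, so it does not fix which end was occupied. The share of islands at the start still moved with the window, from 90.5% at 1 kb to 79.8% at 5 kb. The limit to exactly 1 gene can act unequally at starts and far ends, which was not tested. Strand was taken from the promoter table, which holds 17491 of 21883 protein-coding genes off the mitochondrial genome (79.9%), and 798 islands (22.1%) at genes without an entry could not be oriented. Of the 2816 oriented islands, 2474 (87.9% [86.6 to 89.0]) touched only the window at the start, 239 (8.49% [7.48 to 9.58]) touched only the window at the far end, and 103 (3.66%) touched both. Genes whose 1 island touched both windows had a median length of 2448 bp, since the limit on island width allows this for short genes only. Start islands covered the annotated start coordinate itself in 2061 of 2474 cases (83.3% [81.8 to 84.8]). Far-end islands covered the far-end coordinate in 93 of 239 cases (38.9% [32.7 to 45.4]). A listed start of any gene, coding or not, lay within 7 of the 239 far-end islands.

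Measured from the outermost annotated start, start islands extended farther into the gene than in front of it. Those that covered the start reached a median of 1643 bp downstream (interquartile range 1147 to 2332 bp) and 742 bp upstream (415 to 1157 bp), and 1630 of 2061 (79.1% [77.3 to 80.8]) reached farther downstream. The most covered position was 400 bp downstream of the start, inside 87.7% of the start islands. At 1000 bp upstream the share was 28.3%, and at 1000 bp downstream it was 77.4%. Far-end islands had no such peak, since the share covering a position ran only between 30.5% and 38.9% from 1000 bp before to 1800 bp past the far end. A start that lies inside the gene model falls downstream of the outermost coordinate. Of start islands, 83.3% covered the outermost coordinate and 90.0% covered a listed start of their gene. The part of such inner starts in the downstream reach was not tested.

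**Figure D1:**
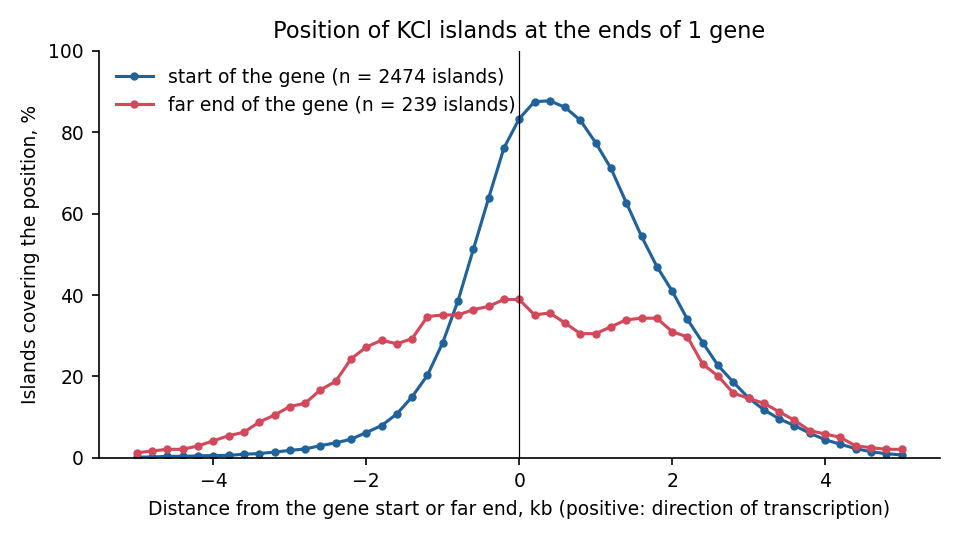
Share of single-gene islands (y axis, %) that cover each position around the start (2474 islands) or the far end (239 islands) of their gene (x axis, kb, positive in the direction of transcription). The curve for starts is highest at 0.4 kb downstream with 87.7%, and the curve for far ends is flat and reaches 38.9% at most.

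Enrichment at single-gene islands was low and rested on few reads. The islands held 32 to 217 IP reads (median 69) and 1 to 75 control reads (median 24). The fold, IP reads over control reads after scaling by the library constant of the KCl list, had a median of 1.85 (interquartile range 1.59 to 2.24) and ran from 1.23 to 24.5. Of all KCl islands 66.6% were at least 2-fold enriched, and of single-gene islands 37.9% were. With both counts allowed to vary, the fold's interval lay above 1 at 75.5% of single-gene islands [74.0 to 76.9], compared with 86.4% of all KCl islands. Single-gene islands had a median of 29.5 IP and 10 control reads per kb. Islands inside genes within the same width limits had 35 IP and 9.09 control reads per kb and a median fold of 2.43, and those more than 50 kb outside genes had 38.0 and 8.75 reads per kb and a median fold of 2.72. Those islands were narrower, with median widths of 1800 and 1600 bp against 2400 bp, and the fold fell with width in each class. At widths of 800 to 1600 bp the median fold was 2.17 at single-gene islands and 2.89 inside genes, with 35.8 and 41.2 IP and 10.6 and 9.17 control reads per kb. At 2600 to 3200 bp it was 1.78 and 1.97, with 27.7 IP reads per kb in both and 9.69 and 8.93 control reads per kb. Islands where the ends of 2 or more genes adjoin were close to single-gene islands, with 29.3 IP and 10.4 control reads per kb and a median fold of 1.75. These quantities are read densities in a mixed culture, so more cells with BRG1/BRM at a site and more protein per cell cannot be told apart.

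Start and far-end islands differed in these values. Start islands had a median fold of 1.82 (1.57 to 2.16) with 29.3 IP reads per kb, and their interval lay above 1 in 73.8% of cases. Far-end islands had a median fold of 2.25 (1.77 to 2.94) with 34.4 IP reads per kb, and 84.5% of their intervals lay above 1. The interquartile ranges overlap. Control density was 10 reads per kb at starts and 9.44 at far ends, and far-end islands were narrower (median 1800 against 2400 bp). Single-gene islands that missed the gene end by up to 2 kb had a median fold of 1.93, and those covering it had 1.83.

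**Figure D2:**
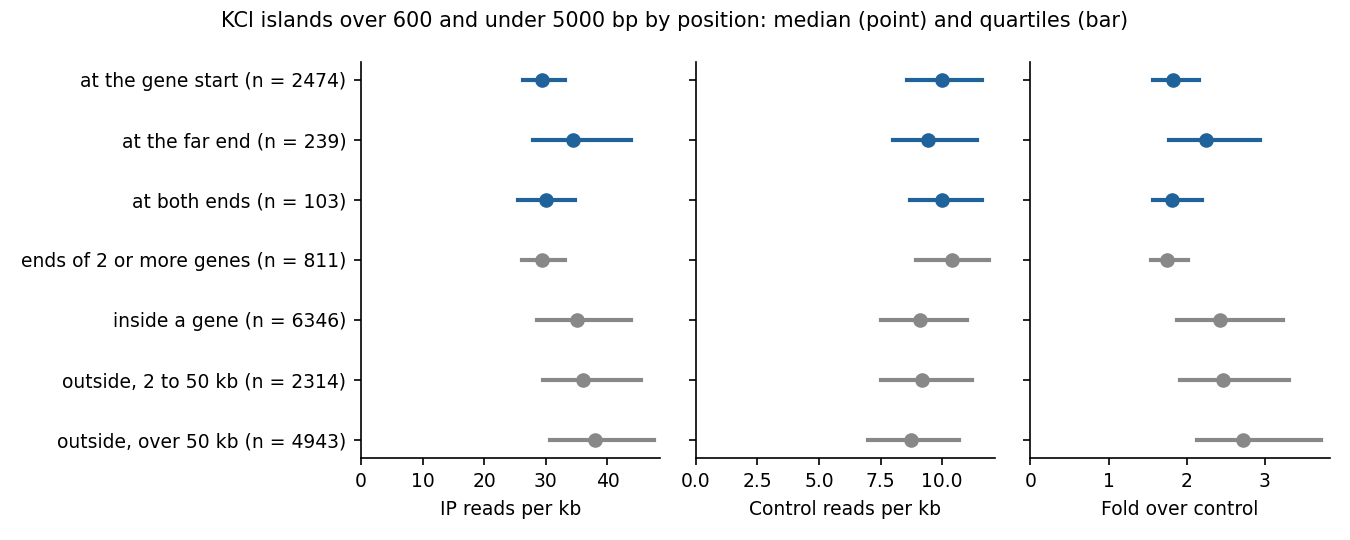
Median (point) and quartiles (bar) of IP reads per kb, control reads per kb and fold over control for KCl islands over 600 and under 5000 bp wide. Single-gene islands are in blue and the other islands in grey. Start islands sit at a median fold of 1.82, next to islands where ends of several genes adjoin (1.75) and below islands inside genes (2.43).

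The bounds of the inclusion rule fell on a continuum. Islands of 800 bp, the narrowest included, numbered 68 with a median fold of 2.83, and the 42 single-gene islands of 600 bp just outside had 3.4. The 50 widest included, of 4800 bp, had a median fold of 1.73, and the 50 of 5000 bp just outside had 1.68. Islands whose edge lay over 1 and up to 2 kb from the gene end (261 islands) had a median fold of 2.03, and 451 islands of the same widths over 2 and up to 4 kb from a gene end had 2.14.

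The starts inside single-gene islands were rich in CpG. Of 21262 listed starts of protein-coding genes, 2485 lay with their whole 300 bp window inside such an island. The median observed-to-expected CpG ratio of these windows was 0.830 (interquartile range 0.692 to 0.952), compared with 0.431 (0.183 to 0.759) for 16888 starts in no KCl island and 0.567 for all starts. Median GC content was 65.7%, 54.3% and 56.3% in the same order. Starts inside islands where gene ends adjoin were as rich in CpG, with a median ratio of 0.841 (0.709 to 0.953). The share of starts inside a single-gene island was 0.639% [0.432 to 0.911] at CpG ratios under 0.2 and 24.5% [22.5 to 26.6] at ratios of 1 or more, and rose in each step between. The share inside any KCl island rose as well, from 1.79% to 42.4%. The fold of single-gene islands did not follow. Its median stayed between 1.77 and 1.82 in every class of CpG ratio, with 28.8 to 30 IP and 9.62 to 10.3 control reads per kb. How far read recovery from GC-rich DNA takes part in these shares was not tested.

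**Figure D3:**
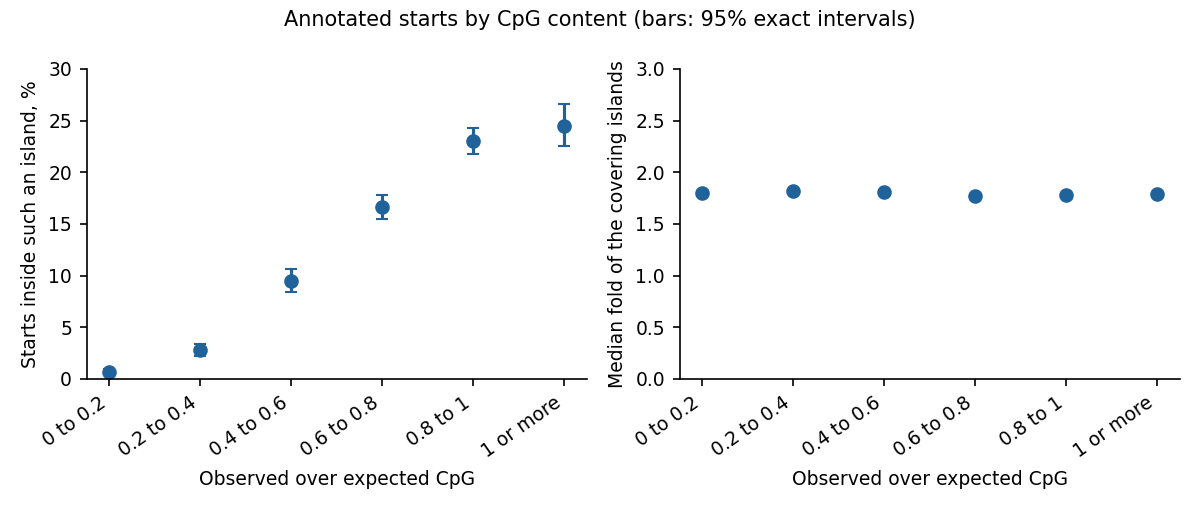
Listed starts of protein-coding genes by observed-to-expected CpG ratio (x axis). The left panel gives the share inside a single-gene island with 95% exact intervals, from 0.639% to 24.5%, and the right panel gives the median fold of the covering islands, 1.77 to 1.82.

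Motif letters were counted in the same 300 bp windows on both strands. A cAMP response element was present in 91 of 2485 covered starts (3.66% [2.96 to 4.48]), in 1.87% of starts in no KCl island and in 2.23% of all starts. This string holds a CpG itself. Among starts with a CpG ratio of at least 0.6 the shares were 4.01% [3.21 to 4.94] covered, 3.56% in no KCl island and 3.72% of all, so the intervals overlap. In islands where gene ends adjoin, 4.50% [3.34 to 5.90] of starts held the element, and 5.10% [3.80 to 6.69] at CpG ratios of at least 0.6. Covered starts with the element had a median fold of 1.92, those without it 1.79. The AP-1 site was found in 3.58% [2.89 to 4.39] of covered starts and 6.99% of all starts, and at CpG ratios of at least 0.6 in 2.91% [2.24 to 3.73] and 3.45%. The CArG box stood in 1.49% of covered and 1.52% of all starts, and the MEF2 site in 0.563% and 0.489%.

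GC boxes (GGGCGG), the site of Sp1-type factors, were present in 75.3% [73.5 to 77.0] of covered starts and 46.2% of all starts, and at CpG ratios of at least 0.6 in 80.7% [79.0 to 82.4] against 71.6% of starts in no KCl island. TATA boxes (TATAAA) stood in 5.79% of covered starts and 12.6% of all starts, a difference that was small at CpG ratios of at least 0.6 (5.21% [4.29 to 6.25] and 5.58%). The ETS site (CCGGAAGT) went the other way in CpG-rich starts. It was present in 5.30% [4.38 to 6.35] of covered ones, in 10.8% [10.1 to 11.6] of those in no KCl island, and in 9.06% [7.32 to 11.1] of those in an island where gene ends adjoin. Of the other strings, CCAAT was found in 36.1% of covered and 38.2% of all starts, CACGTG in 10.1% and 7.84%, CAGCTG in 14.2% and 15.6%, the NRF1 string GCGCATGCG in 3.62% and 2.35%, the YY1 string AAGATGGCG in 2.98% and 1.83%, and the ZBTB33 string CTCGCGAG in 1.85% and 1.24%. At CpG ratios of at least 0.6 the shares were 10.8% [9.54 to 12.3] and 11.4% for CACGTG. They were 4.25% [3.43 to 5.20] and 4.51% for NRF1, 3.34% [2.62 to 4.20] and 3.52% for YY1, and 2.01% [1.45 to 2.70] and 2.43% for ZBTB33. In each of these pairs the interval of covered starts included the share of all starts. A TATA box can lie within a MEF2 site or a CArG box, and a CCAAT box within a CArG box. A match is a match of letters and does not show binding.

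Long genes carried start islands more often than short ones. Among oriented genes, 73 of 4080 of up to 5 kb had a start island (1.79% [1.41 to 2.24]), 17.4% [16.3 to 18.6] of those of 20 to 50 kb did, and 262 of 744 above 200 kb did (35.2% [31.8 to 38.8]). In the shortest class many islands touched both windows, and with those counted the share was 168 of 4080 (4.12% [3.53 to 4.77]), while the shares of both longer classes were as given. The share with a far-end island was 0.588% [0.377 to 0.874] in the shortest class and 3.49% [2.30 to 5.08] in the longest. In 1324 of 3614 cases (36.6% [35.1 to 38.2]) another KCl island lay in the same gene or within 2 kb of it. The median gap to the next KCl island was 39.4 kb, compared with 29.6 kb for all KCl islands.

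Across all protein-coding genes 16.0% had a single-gene island, and 25.2% had any KCl island at an end. Against this background, the neuronal and activity-regulated lists stood high. Rapid activity-regulated genes, which respond within minutes to neuronal activity, had one in 20 of 42 cases (47.6% [32.0 to 63.6]), on 23 islands with a median fold of 1.79 (1.23 to 3.82). The interval lay above 1 at 19 of the 23, and at 75.5% of all single-gene islands. In 8 other genes of the list, among them Fos, Jun and Egr3, the island at the end was wider than the limit, in Jund it touched a second gene, and 13 had none. Delayed activity-regulated genes had a single-gene island in 14 of 30 cases (46.7% [28.3 to 65.7], median fold 2.18), with the interval above 1 at 13 of 14 islands. Cortical neuron genes had one in 21 of 32 (65.6% [46.8 to 81.4], median fold 1.99, above 1 at 21 of 25 islands). Nefm belongs to both the delayed and the cortical list.

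Among transcription factors of the rapid response, Klf4, a zinc finger factor, had 73 IP and 12 control reads over its start (3.82-fold [2.06 to 7.73]). Srf itself had 77 and 21 reads (2.30-fold [1.41 to 3.93]). The AP-1 subunit genes Fosb and Fosl2 had 57 IP and 16 control reads (2.24-fold [1.27 to 4.17]) and 140 and 47 reads (1.87-fold [1.34 to 2.66]) at their starts, and a second Fosb island at the far end was 1.54-fold enriched [1.00 to 2.42]. Nr4a1, an orphan nuclear receptor gene, was 1.86-fold enriched at its outermost annotated start [1.13 to 3.16], under an island that covered no listed start of the gene. The Nr4a3 island lay at the far end (1.52-fold [1.04 to 2.24]). Egr1 had 124 IP and 45 control reads (1.73-fold [1.22 to 2.49]), and Egr2 98 and 39 (1.58-fold [1.08 to 2.35]). At Atf3, Ier2 and Ier5 the folds were 1.31, 1.23 and 1.44, and all 3 intervals included 1. Apart from Klf4, these genes lie outside the naming rule and were picked with their values in view.

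Npas4, the activity-dependent neuronal factor, shows how the annotated ends bear on the counts. Its outermost annotated start lies at 5003439 on chromosome 19, and the island near it (5001401 to 5002400) held 43 IP and 8 control reads (3.38-fold [1.57 to 8.31]) without covering it or a listed start. The far end carried an island of 103 IP and 26 control reads (2.49-fold [1.61 to 3.99]). The only start listed in the promoter table lies inside the gene model, under another KCl island that is not counted here. Over all start islands, 2227 of 2474 (90.0% [88.8 to 91.2]) covered a listed start of their gene. Ccn1, a matricellular protein gene, had an island of 86 IP and 18 control reads near its start (3.00-fold [1.79 to 5.30]) that did not cover it, and a second across the gene (54 IP and 20 control reads, 1.70-fold [0.999 to 2.99]).

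Within the delayed response, Scg2 and Cgref1 led as given above. Nptx2, the neuronal pentraxin gene, had 48 IP and 11 control reads (2.74-fold [1.40 to 5.85]), and Bmp4, a secreted growth factor gene, 69 and 16 (2.71-fold [1.56 to 5.00]). Both islands lay near an end without covering it. Pim1, Grasp and Rheb, which encode a kinase, a receptor scaffold and a small GTPase upstream of mTORC1, were 2.45-fold, 2.37-fold and 2.0-fold enriched at their starts, and Sertad1 had the lowest fold of the list, 1.37 [0.861 to 2.22]. Those 4 were picked with their values in view.

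Of the 25 islands of cortical neuron genes, 12 lay at a start and 5 at a far end, and 8 could not be oriented. Tbr1, a T-box factor of deep-layer neurons, had 117 IP and 28 control reads near its start (2.62-fold [1.73 to 4.12]) and 46 and 9 at its far end (3.21-fold [1.55 to 7.46]). Fezf2, a zinc finger factor of subcerebral projection neurons, had a pair of far-end islands, 3.03-fold [2.02 to 4.69] with 140 IP and 29 control reads and 1.68-fold [1.02 to 2.89]. Cux1, a homeodomain factor of upper layers, was 3.19-fold enriched at its start (132 IP and 26 control reads [2.08 to 5.06]). The neurofilament gene Nefl, which could not be oriented, was 3.25-fold enriched (93 and 18 reads [1.94 to 5.71]). Mef2c, the gene of an activity-dependent factor, had an island at each end, 2.17-fold [1.37 to 3.58] at the start and 1.75-fold [1.12 to 2.80] at the far end. An island at the start and another at the far end was found in 54 of the 79 oriented genes that had 2 or more single-gene islands.

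**Figure D4:**
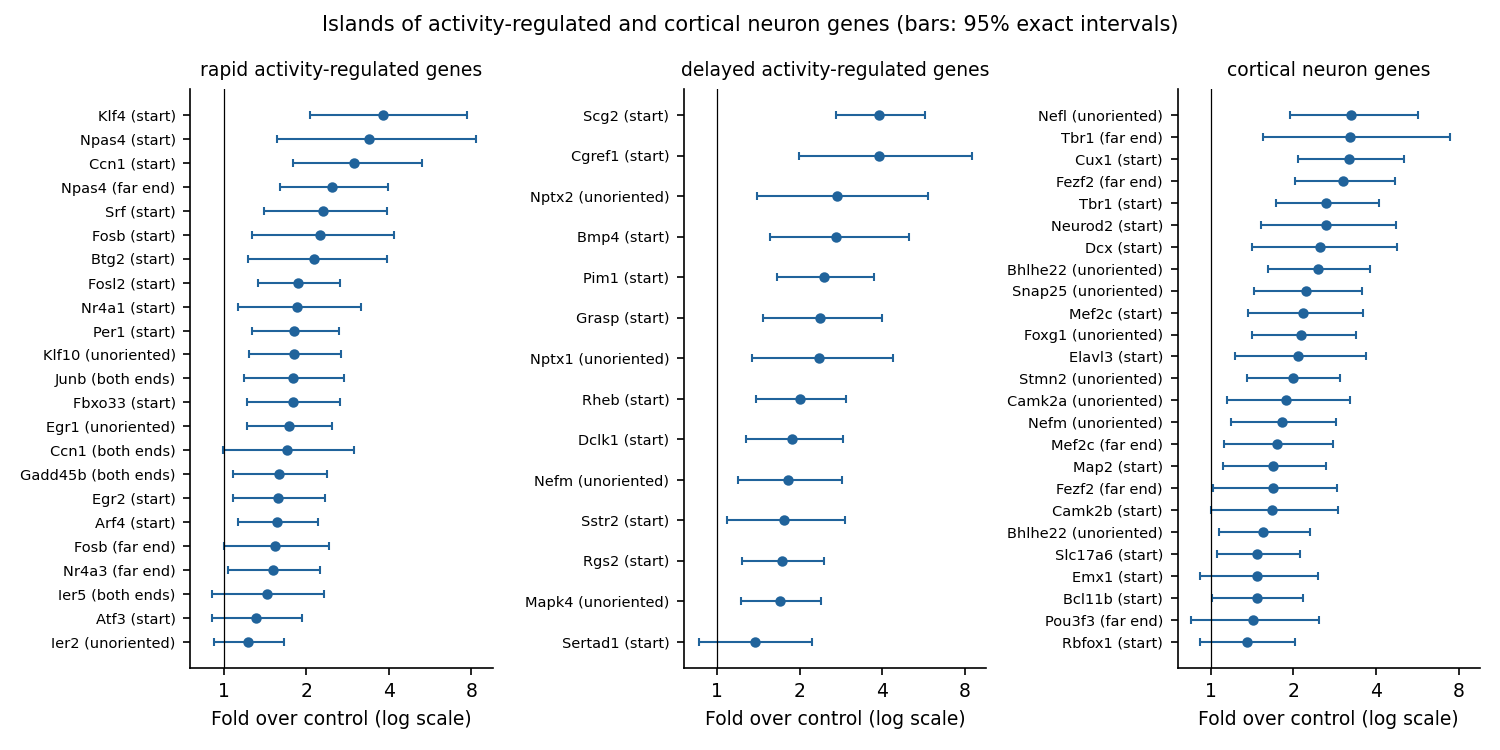
Fold over control (x axis, log scale) with 95% exact intervals for each single-gene island of the rapid, delayed and cortical neuron lists, with the end of the gene it lay at. Most intervals lie above 1, and those of Ier2, Atf3, Ier5, Sertad1, Camk2b, Emx1, Pou3f3, Rbfox1 and the lower Ccn1 island include it.

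Synaptic genes followed. Postsynaptic genes had a single-gene island in 15 of 30 cases (50% [31.3 to 68.7]). They included the metabotropic glutamate receptor gene Grm5 (113 IP and 26 control reads, 2.73-fold [1.77 to 4.36]), the NMDA receptor subunit gene Grin2a (107 and 24, 2.80-fold [1.79 to 4.56]) and the scaffold gene Dlg1 (62 and 13, 3.00-fold [1.63 to 5.94]). Presynaptic genes had one in 12 of 30 cases (40% [22.7 to 59.4]). Syn2, a synapsin gene, reached 2.51-fold [1.35 to 5.03], and Rims2, Cplx1 and Pclo, which encode proteins of the release site, were 2.38-fold, 2.30-fold and 2.28-fold enriched.

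The genes of the BAF complex themselves had a single-gene island in 9 of 30 cases (30% [14.7 to 49.4], an interval that includes the background). In 5 other genes of the list the island touched a second gene, and in 3 it was wider than the limit. Any KCl island at an end was found in 17 of 30 (56.7%), against 25.2% of all protein-coding genes. Arid1a, its large ARID subunit gene, had 60 IP and 7 control reads near the start (5.38-fold [2.46 to 14.0]), and a second island over the start was 1.51-fold enriched [0.952 to 2.46]. Smarcc2, which encodes the core subunit BAF170, had 53 and 9 reads (3.70-fold [1.81 to 8.53]), Ss18 73 and 16 (2.87-fold [1.65 to 5.28]) and Dpf2 51 and 13 (2.46-fold [1.32 to 4.94]). Smarca2, the gene of BRM, was 1.55-fold enriched at its start [1.12 to 2.18], and was named after its value was seen.

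Housekeeping lists stayed near the background for single-gene islands. Cytosolic ribosomal protein genes had a single-gene island in 8 of 40 cases (20% [9.05 to 35.6]), spliceosome and RNA processing genes in 8 of 40 (20%), proteasome genes in 4 of 31 (12.9% [3.63 to 29.8]) and respiratory chain genes in 5 of 40 (12.5% [4.19 to 26.8]). Many of these genes adjoin a neighbour, so that 8 ribosomal, 7 spliceosome, 3 proteasome and 9 respiratory genes had an island that touched another gene as well. The single-gene islands of respiratory and proteasome genes were weak. Their median folds were 1.48 and 1.59, and the interval lay above 1 at 1 of 5 and 1 of 4 islands, Ndufv2 (59 IP and 22 control reads, 1.68-fold [1.02 to 2.89]) and Psmd7 (86 and 28, 1.93-fold [1.25 to 3.07]). Ndufv1, Ndufs7 and Sdhb had folds of 1.48, 1.48 and 1.43, and Psmc1, Psmb2 and Psmd6 of 1.60, 1.59 and 1.59, with intervals that included 1. Ribosomal protein genes had a median fold of 2.01, led by Rpl5 (47 and 8 reads, 3.69-fold [1.73 to 9.04]), with Rps19, Rpl38 and Rps16 at 2.23, 2.11 and 2.04. For the spliceosome list the median was 1.75. Its first members were Srsf1, a splicing factor gene (2.78-fold [1.67 to 4.84]), and Snrpb, Hnrnpu and Snrpd1 (2.18-fold, 1.90-fold and 1.85-fold).

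For markers of other cell types that such cultures can hold, each list's interval included the background of 16.0%. Interneuron genes had single-gene islands in 5 of 20 cases (25% [8.66 to 49.1]), among them Maf (2.56-fold), Erbb4 (2.15-fold) and Reln (1.83-fold). The other 15 had no KCl island at an end, among them Gad1, Gad2, Slc32a1, Lhx6, Sst and Pvalb. Astrocyte genes had single-gene islands in 4 of 15 (26.7% [7.79 to 55.1]), with Slc1a3, a glutamate transporter gene, at its far end (51 IP and 9 control reads, 3.56-fold [1.74 to 8.22]), and Aqp4, Ndrg2 and Slc1a2 at 2.37-fold, 2.16-fold and 2.07-fold. In 9 astrocyte genes, among them Gfap, Aldh1l1, S100b and Gja1, no KCl island lay at an end. Oligodendrocyte lineage genes had single-gene islands in 2 of 15 (13.3%), Pdgfra (2.28-fold) and Olig1 (1.72-fold). Microglia genes had 0 of 15 (upper limit 21.8%), and liver and muscle genes 1 of 20, Acta1 (2.36-fold [1.23 to 4.89]). Olfactory and vomeronasal receptor genes, a large family that cortical neurons mostly do not express, had 10 of 1465 (0.683% [0.328 to 1.25]), an interval below the background. The highest fold among those was at Olfr1133, where 34 IP reads stood against 2 control reads (10.7-fold [2.74 to 91.7]), followed by Olfr201, Olfr25 and Olfr229 (3.83-fold, 3.69-fold and 3.04-fold). Gene length and CpG content differ between such lists, and their part in these counts was not tested.

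**Figure D5:**
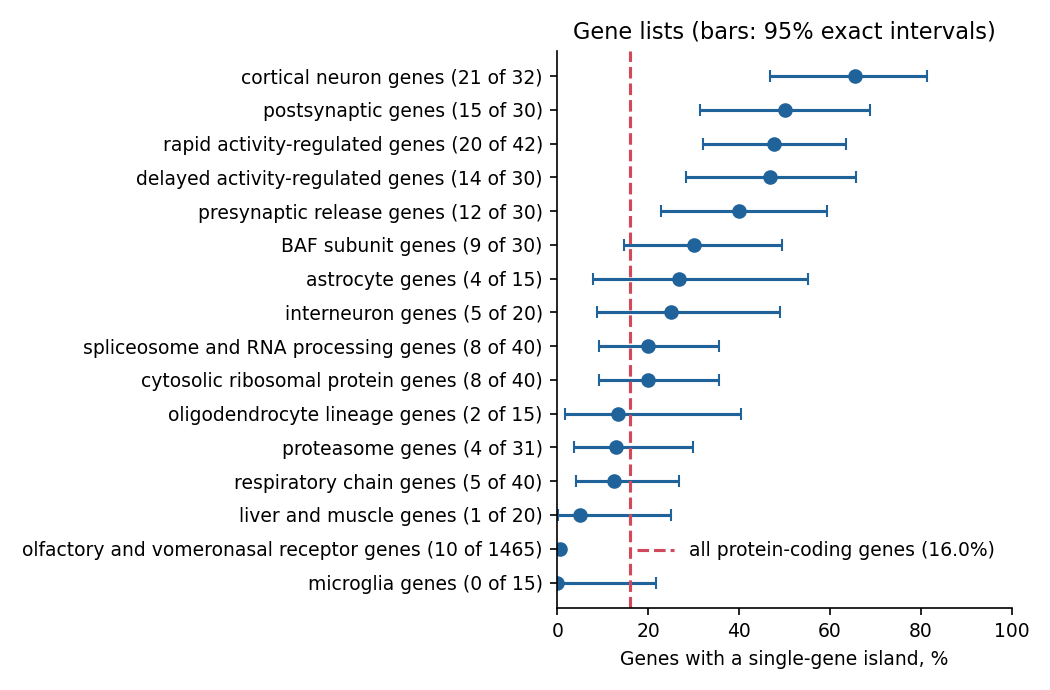
Share of genes of each list with a single-gene island (x axis, %), with 95% exact intervals and the count in brackets. The dashed line marks 16.0%, the share of all protein-coding genes. Cortical neuron genes are highest with 21 of 32, and microglia genes have 0 of 15.

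Among single-gene islands that could be oriented, those with the highest lower limits of the fold lay mostly at genes outside these lists. At starts they were Spef2, a sperm flagellar gene, where 35 IP reads stood against 1 control read (22.0-fold [3.69 to 893]), Nox3, an NADPH oxidase gene (79 IP and 9 control reads, 5.51-fold [2.76 to 12.5]), Scg2, Chka, the choline kinase gene (45 and 4, 7.07-fold [2.58 to 27.1]), Cfap58, a cilia gene (162 and 26, 3.91-fold [2.58 to 6.17]), and Vat1l (87 and 12, 4.55-fold [2.48 to 9.15]). The islands of Spef2 and Nox3 did not cover the start. At far ends they were Pik3cg, a phosphoinositide kinase gene (98 and 8, 7.69-fold [3.75 to 18.3]), Dnaaf6 (51 and 3, 10.7-fold [3.45 to 53.5]), Cox7b2 (125 and 16, 4.91-fold [2.91 to 8.85]), Niban1 (50 and 4, 7.85-fold [2.88 to 29.9]), Cnga2, an olfactory channel gene on chromosome X (43 and 3, 9-fold [2.88 to 45.4]), and Siah3 (76 and 8, 5.97-fold [2.88 to 14.3]). Only Pik3cg and Niban1 of these 6 were covered at the end itself. Islands that could not be oriented were left out of this ranking, though some had lower limits as high. Examples are an island of Mpdz (10-fold [3.24 to 50.4]) and an island of Fap (6.91-fold [3.20 to 17.8]). After Scg2, the most IP reads were held by Csmd3 (199 IP and 59 control reads, 2.12-fold), Ppp2r5e (193 and 54, 2.24-fold) and Epc1, a chromatin acetyltransferase subunit gene (185 and 61, 1.90-fold [1.42 to 2.59]).

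Few single-gene islands had a counterpart in basal neurons. Of the 3614, 28 (0.775% [0.515 to 1.12]) overlapped 1 of the 711 basal islands, compared with 2.15% of all KCl islands. With basal islands held to an FDR of at most 1e-05, the share of single-gene islands was 0.0830%. A stricter basal list can only lower the overlap of any class. The share of all KCl islands at this setting was not computed, so 0.0830% is not particular to single-gene islands. Inside genes, islands within the same width limits overlapped a basal island in 2.57% of cases [2.19 to 2.99]. Where the ends of 2 or more genes adjoin, 4 of 811 did (0.493% [0.135 to 1.26]), so the low share was not particular to single-gene islands. At widths of 1800 to 2400 bp the shares were 0.948% [0.474 to 1.69] for single-gene islands and 2.85% [2.13 to 3.75] inside genes. The largest KCl folds among the 28 were those of Fap, a membrane protease gene (77 IP and 7 control reads, 6.91-fold [3.20 to 17.8]), Abca8a, a transporter gene (37 and 5, 4.65-fold [1.82 to 15.2]), Tbc1d9 (66 and 9, 4.61-fold [2.28 to 10.5]) and Glrp1 (84 and 15, 3.52-fold [2.02 to 6.56]). In the basal library the overlapping islands held 52 IP and 35 control reads at Fap (1.69-fold [1.08 to 2.67]), 51 and 37 at Abca8a (1.57-fold [1.01 to 2.46]), 39 and 24 at Tbc1d9 (1.85-fold [1.08 to 3.21]) and 40 and 26 at Glrp1 (1.75-fold [1.04 to 2.98]). Each list has its own control reads, so the folds of both lists are given side by side and not compared. Of the rapid genes, Junb and Ier5 were among the 28. An island absent from the basal list can be one that missed its threshold.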

How the data were processed

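BRG1/BRM ChIP-seq islands of 1 KCl and 1 basal IP library were used, each with the reads of a control. Per the submitters' processing notes, the tools were BWA (version not given in the sources used here) and SICER 1.0, and the build mm10. The file names give a 200 bp window, gaps of 600 bp and FDR 0.01 as settings. Libraries were not pooled. The authors deposited counts of IP and control reads per island, unnormalized, a p-value and an FDR that adjusts it, and a fold, the ratio of both counts scaled by a library constant (1.59 for KCl and 0.880 for basal, recovered from the counts). No single-gene island had 0 control reads, so their folds are those the authors deposited. Total depth is not given in the files. KCl islands held 1433200 IP and 400612 control reads, and single-gene islands 269323 and 91112.

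Coordinates were converted to 1-based. Genes and starts came from the RefSeq tables of GRCm38.p6, without exons or UTRs, and the start of a gene is its outermost annotated coordinate, predicted transcripts included. Fold intervals are exact binomial intervals of IP among IP and control reads, divided by the constant. Without molecular identifiers they cover counting error only. That islands were selected for enrichment is not taken into account. Python 3.11.15, pandas 2.3.3 and scipy 1.17.1 were used, and the functions were tested on simulated data. Single-gene islands and the 16 gene lists were chosen with earlier results of these data known. Named islands were the 6 with the highest lower limit of the fold at starts and at far ends, the 4 with most IP reads, the 4 with the highest fold that overlapped a basal island and up to 4 per list with the highest fold, leaving out the 1% of KCl islands with the highest control density. Predicted genes were left out of the first group. Some genes that the rule names are not reported here. Alternatives changed the FDR, the fold threshold, the window, the overlap, the widths, the gene set and the control density.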

Additional observations from a re-analysis of the deposited data

How the results depend on the processing

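With 1 library per condition no replicate could be left out. An FDR of at most 1e-05 left 2175 of 3614 single-gene islands at 2128 of 3508 genes, with a median fold of 2.13, 100% of intervals above 1 and 86.4% of oriented islands at the start. A fold of at least 2 left 1369 islands at 1347 genes, with a median fold of 2.37, 100% of intervals above 1 and 82.3% at the start. Both settings select on enrichment, which raises the fold and the share above 1 by construction. A window of 1 kb put 90.5% of islands at the start, and one of 5 kb put 79.8% there, with a median fold of 1.88 and 77.2% of intervals above 1. With all widths 77.2% of intervals lay above 1. Basal islands at an FDR of at most 1e-05 left an overlap of 0.0830%, in place of 0.775%. Under the other settings run (the island centre in the window, no predicted genes, no islands of highest control density, and an overlap over at least 50% of the island) the values stayed within their intervals and the counts within 1.5 times. Low read counts limit single islands: the fold's interval lay above 1 at 75.5% of single-gene islands and included 1 at the rest.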

Other observations

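Chromosome X carried few single-gene islands. Of its 966 protein-coding genes, 27 had one (2.80% [1.85 to 4.04]), among them the neuronal migration gene Dcx (60 IP and 15 control reads, 2.51-fold [1.41 to 4.76]), and the shares on the autosomes ran from 9.16% on chromosome 7 to 24.7% on chromosome 18. Chromosome 7 holds 417 olfactory and vomeronasal receptor genes, and without those its share was 11.5%. The chromosome X share without receptor genes was 2.82%. Control density at single-gene islands was lower on X, with a median of 7.05 reads per kb against 9.33 to 10.5 on the autosomes, and IP density was 27.8 against 28.5 to 30.4. The part of read depth in this was not tested. KCl islands of every kind were few on X, 227 against 508 to 1685 on the autosomes. Single-gene islands were 12.3% of the KCl islands on X, against 12.1% to 25.5% on the autosomes. The Y chromosome had no single-gene island among 256 genes.

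Some single-gene islands lay near annotated genes that are not protein-coding, mostly lncRNA genes. Within 2 kb of an end of such a gene lay 838 of 3614 (23.2% [21.8 to 24.6]), 705 of them at a lncRNA gene and 40 (1.11%) at a miRNA gene. The same share over all KCl islands was not computed, so 23.2% has no background to be read against. Islands overlapped Mir99b and Mirlet7e near Spaca6 (1.74-fold), Mir484 at Marf1 (1.54-fold) and Mir8105 at Smarcc2 (3.70-fold). These were picked with their values in view. The single-gene rule considers protein-coding genes only, so such islands can belong to either transcript. Mpdz, Gnai2, Pipox and Fap each had 3 single-gene islands. At Mpdz, the gene of a scaffold with many PDZ domains, the 3 islands were 10-fold [3.24 to 50.4], 3.72-fold [2.10 to 7.11] and 2.25-fold [1.17 to 4.69] enriched.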
